A study of Caenorhabditis elegans with 2 samples.

Results

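Peaks of the tagged transcription factor FOS-1 that fell inside introns of protein-coding genes, away from promoters and on the autosomes, made up 246 of the 1895 peaks that the authors retained from chromatin immunoprecipitation and sequencing (ChIP-seq) of Caenorhabditis elegans L1 larvae, the first larval stage. A peak was counted when its summit, the point of highest signal, lay within the body of a protein-coding gene, outside every exon of such genes and outside every promoter window. Promoter windows covered the 1000 bp before and the 200 bp after the 5′ end that Ensembl release 115 gives each protein-coding gene. Coordinates are those of the assembly WBcel235, which the files call ce11. The whole-animal extracts came from 1 group, with 2 biological replicates of mixed sex and unknown age. Both were of strain OP304, which carries the unc-119(ed3) mutation on chromosome III and the integrated transgene wgIs304 encoding FOS-1 fused to eGFP. There was no untagged or treated group to set these larvae against, and the promoter driving the transgene is not given in the sources used here. Because the extract was of whole larvae, binding in a few cells and weak binding in many cannot be told apart.

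FOS-1 is a Fos-family protein with a basic leucine zipper (bZIP), and proteins of this kind bind DNA as dimers with a partner such as Jun, preferentially at the short palindromic AP-1 site. In the worm FOS-1 is best known for its part in anchor cell invasion through basement membrane and in stress responses. Introns can hold enhancers, the promoters of shorter transcripts of the host gene, and whole genes for small RNAs such as transfer RNAs (tRNAs), small nucleolar RNAs (snoRNAs, which guide RNA modification) and small nuclear RNAs (snRNAs, which work in splicing).

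Sequences centred on the summits show the 3 kinds of site that recur below. The first set holds intronic peaks with an AP-1 site, written TGASTCA where S is C or G, together with a GA repeat (GAGAGAG on either strand) in several of them. These are picked examples that show the pair more often than the whole. Of all 16 intronic peaks with an AP-1 site, 6 also held a GA repeat. All sequences are 101 bases of the genome's plus strand, 5′ to 3′, and capitals mark the motif matches.
vhp-1, intron 5 (II:5336983-5337083): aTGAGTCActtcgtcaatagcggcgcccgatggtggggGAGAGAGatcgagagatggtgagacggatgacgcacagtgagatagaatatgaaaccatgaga
rme-1 (V:6214009-6214109): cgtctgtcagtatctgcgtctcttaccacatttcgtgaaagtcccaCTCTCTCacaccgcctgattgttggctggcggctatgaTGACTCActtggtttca
nova-1 (V:18079292-18079392): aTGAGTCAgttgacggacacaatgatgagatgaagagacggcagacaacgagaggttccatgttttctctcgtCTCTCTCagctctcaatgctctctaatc
soc-2 (IV:5134949-5135049): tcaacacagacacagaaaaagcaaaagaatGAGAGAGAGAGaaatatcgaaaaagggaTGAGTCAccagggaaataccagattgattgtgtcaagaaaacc
par-1 (V:14139401-14139501): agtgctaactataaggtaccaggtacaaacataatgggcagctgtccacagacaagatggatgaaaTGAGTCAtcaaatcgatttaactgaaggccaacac
vhp-1, intron 4 (II:5335639-5335739): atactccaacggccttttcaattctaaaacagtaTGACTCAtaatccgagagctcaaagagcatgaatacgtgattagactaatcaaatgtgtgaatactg
epg-6 (III:10599878-10599978): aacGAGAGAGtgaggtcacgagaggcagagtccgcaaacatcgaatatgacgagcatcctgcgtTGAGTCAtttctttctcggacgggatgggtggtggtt

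The second set shows peaks at small RNA genes nested in introns: a peak upstream of a tRNA gene that also holds an AP-1 site, a peak inside a tRNA gene with the GGTTCGA sequence of the internal tRNA promoter in capitals, and a peak upstream of an snRNA gene in which no searched motif was found. The third set shows peaks with a GA repeat and no AP-1 site.
Y4C6B.3, tRNA-Gln (IV:5334608-5334708): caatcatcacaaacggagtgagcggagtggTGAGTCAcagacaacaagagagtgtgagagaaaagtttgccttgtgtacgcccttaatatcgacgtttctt
C18H7.1, tRNA-Val (IV:620458-620558): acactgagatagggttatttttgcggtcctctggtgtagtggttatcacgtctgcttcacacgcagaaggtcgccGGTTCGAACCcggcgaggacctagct
dhc-4, snRNA W05B2.8 (III:10989585-10989685): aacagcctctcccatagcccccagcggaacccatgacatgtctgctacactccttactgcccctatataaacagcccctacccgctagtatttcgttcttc
zfp-1, GA repeat (III:8797423-8797523): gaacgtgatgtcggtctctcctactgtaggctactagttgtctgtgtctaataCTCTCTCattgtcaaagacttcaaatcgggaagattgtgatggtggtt
W06H8.6, GA repeat (V:6224644-6224744): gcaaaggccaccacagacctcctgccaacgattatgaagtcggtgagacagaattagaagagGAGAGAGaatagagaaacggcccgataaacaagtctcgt

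The motif matches in these windows describe the letters under the summit and are not evidence of which factor bound them.

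The peaks were read from narrowPeak lists, in which each entry has an interval, a summit and a signal value that is the authors' own. The retained list is the output of the irreproducible discovery rate (IDR) procedure, which weighs how alike entries rank in both replicates. It was drawn from a pooled list of 20363 entries, and each replicate had its own list, of 29801 entries in replicate 1 and 23483 in replicate 2. The lists are on different scales, so replicates were compared by rank, and with no read counts in the lists the depth is unknown. Intervals are 95% Clopper-Pearson for shares and exact Poisson for densities, and cover counting error over peaks only. No p-value is given, because there is 1 group and peaks are not replicates of it.

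Intronic peaks were a minority of a class that is abundant among weak entries. The pooled list held 4974 autosomal intronic entries, of which 246 (4.95%, 4.36 to 5.58%) were among the IDR peaks. Of all 16320 autosomal pooled entries 9.41% were kept, and the share was 18.4% of 5240 at promoters and 7.49% of 4034 between genes. The 246 peaks were 16.0% (14.2 to 17.9%) of the 1536 autosomal IDR peaks, on intron sequence that made up 30.7% of the autosomal genome. Their density was 9.69 per Mb (8.52 to 11.0) of eligible intron, against 52.3 per Mb of promoter window, 15.6 per Mb of intergenic sequence and 1.34 per Mb of exon.

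All 1895 IDR peaks ranked within the first 1895 pooled entries by signal, so being retained amounted to passing a common floor of signal. The lowest signals were 42.6 for intronic, 42.5 for promoter and 42.5 for intergenic peaks. Because of that floor, the values below compare only what lay above it and cannot show whether the classes had like signal. Over all pooled entries the medians were 16.3 for intronic, 19.7 for promoter and 17.1 for intergenic entries. Above the floor the median signal was 63.2 (59.8 to 67.2) for intronic peaks, 64.8 (62.7 to 67.8) for the 962 promoter peaks and 58.9 (54.3 to 63.2) for the 302 intergenic peaks. Those intervals overlapped between intronic peaks and both other classes. The signal of intronic peaks ran from 42.6 to 342, with quartiles at 50.3 and 81.8. Among the 189 IDR peaks of highest signal were 17 intronic peaks (6.91%, 4.08 to 10.8%, of the intronic set), against 96 promoter peaks (9.98%, 8.16 to 12.0%) and 17 intergenic peaks (5.63%, 3.31 to 8.86%). The weakest intronic peak, in intron 4 of Y111B2A.12 (III:12615168-12615507), had a signal of 42.6 and pooled rank 1887. The first intronic entry below the list, in let-526, had a signal of 42.4 and pooled rank 1900.

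**Figure D1:**
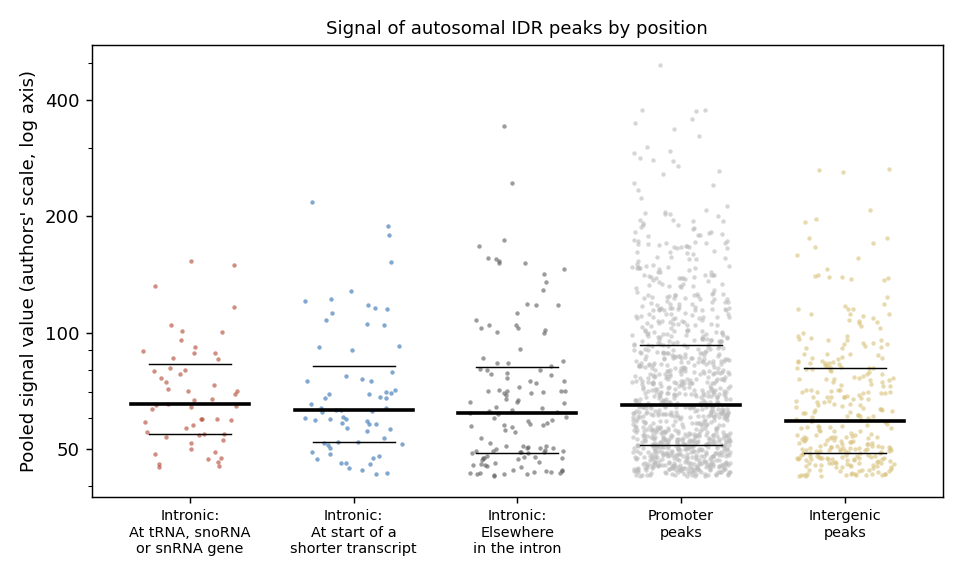
Pooled signal value (authors' scale, log axis) of each autosomal IDR peak, with intronic peaks split by what lies at the summit and promoter and intergenic peaks to their right. Thick bars are medians and thin bars quartiles; the medians of the 3 intronic groups lie between 61.7 and 65.4, against 64.8 for promoter and 58.9 for intergenic peaks.

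The peaks were spread over all autosomes, with 49 on chromosome I, 45 on II, 69 on III, 48 on IV and 35 on V. Chromosome III was the densest, at 14.2 per Mb of eligible intron (11.0 to 17.9), and chromosome V the sparsest, at 6.44 per Mb (4.49 to 8.96), with intervals that did not overlap. These extremes were picked after the values were seen, and the intervals treat peaks as independent. On III, zfp-1, pqn-41, Y111B2A.12 and aakg-1 held 6, 5, 4 and 4 of the 69 peaks. On X, 64 further intronic peaks gave 12.5 per Mb (9.62 to 16.0).

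Every intronic peak overlapped an entry in both replicate lists (246 of 246, lower bound 98.5%), which is a description, as the IDR procedure used both lists. A stricter reading asked for a place among the 1895 highest entries of a replicate. In replicate 1, 207 intronic peaks (84.2%) had such a place, and in replicate 2, 199 (80.9%). For 166 (67.5%, 61.2 to 73.3%) it held in both, a share close to the background of 67.8% over all autosomal IDR peaks. Over these selected peaks the replicate signals were related but not tightly. Spearman's rho of the replicate signals was 0.52 and Pearson's r of their log2 values 0.60 over the 246 peaks, which share 1 control file. Over the 1523 autosomal IDR peaks listed in both replicates, rho of the ranks was 0.58. Peaks were retained by rank in these same lists, so neither value measures agreement over all entries. The median rank was 880.5 in replicate 1 and 967 in replicate 2. There were 3 overlapping pairs of intronic peaks, in zfp-1, F58G1.7 and klp-6, and the peaks of a pair were matched to the same entry in each replicate list, so those pairs may each be 1 site. Both peaks of each pair enter the correlations with the same replicate values.

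**Figure D2:**
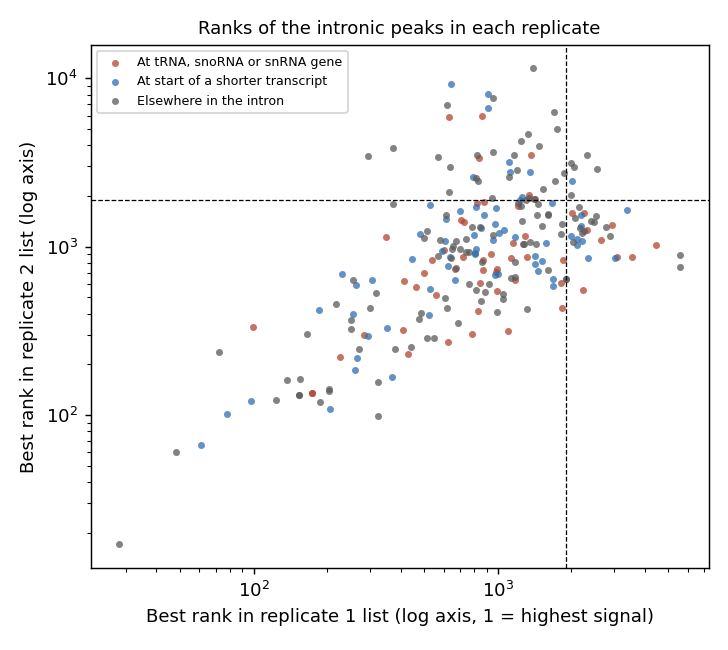
Best rank of each of the 246 intronic peaks among the entries of replicate 1 (x axis) and replicate 2 (y axis), both on log axes with 1 as the highest signal, coloured by what lies at the summit. Dashed lines mark rank 1895; 166 peaks lie inside both lines, and the strongest peak, in vhp-1, ranks 28 in replicate 1 and 17 in replicate 2.

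The strongest intronic peak lay in intron 5 of the 7 of vhp-1, a phosphatase that acts on stress-activated MAP kinases (WBGene00006923; II:5336899-5337185). Its signal was 342 in the pooled list, 215.7 in replicate 1 and 130.1 in replicate 2, and it ranked 19, 28 and 17 in those lists. This is the first sequence printed above, with an AP-1 site 46 bp from the summit. The second strongest, in intron 4 of Y111B2A.12 (III:12612566-12612739), had signals of 244 pooled, 162 in replicate 1 and 87.0 in replicate 2. In rme-1, whose product works in endocytic recycling, the peak in intron 5 (V:6214002-6214160) had signals of 218, 140 and 82.3. All 3 were ranked 66 or better in every list.

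The next in order lay in genes of varied function. zfp-1, a zinc finger protein of chromatin related to human AF10, had the next peak by signal (189 pooled, 124.8 in replicate 1 and 68.2 in replicate 2) and 2 further ones of the leading 15, at 155.7 and 151 pooled. unc-108, which encodes a Rab2 GTPase of vesicle traffic, had a peak of signal 179 in its first intron, with 112.7 in replicate 1 and 63.9 in replicate 2. T28F4.1 had one of 174, with 129 in replicate 1 and 47.2 in replicate 2; it ranked 72 in replicate 1 and 238 in replicate 2. epg-9, an autophagy gene, had one of 167 that ranked 123 in each replicate. The nuclear receptor gene nhr-19 (155.4), the MADS-box factor gene mef-2 (153.5), the cohesin loader gene scc-2 (152.6) and the glutamine-rich protein gene pqn-41 (151.8) followed. Their ranks ran from 137 to 205 in replicate 1 and from 108 to 164 in replicate 2. The other members of the leading 15 lay at snRNA genes inside dhc-4 and F58G1.7 and are described with the small RNA genes.

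Intronic peaks fell into 3 groups by what the annotation placed at the summit, a grouping chosen after the data were seen. In 55 (22.4%, 17.3 to 28.1%) a tRNA, snoRNA or snRNA gene lay within 200 bp of the summit. In 68 others (27.6%, 22.2 to 33.7%) the summit lay between 1000 bp before and 200 bp after the start of a shorter annotated transcript of the host gene. Some of these lay near the gene's own 5′ end, such as the peak in lgg-2, 376 bp from it. The remaining 123 (50%, 43.6 to 56.4%) had neither. In replicate 1 alone, among its 1895 highest entries, 20.3% of 251 intronic entries were at small RNA genes and 26.7% at a shorter transcript's start; in replicate 2 the shares were 18.9% and 26.1% of 280. The means were 19.6 ± 0.98% and 26.4 ± 0.44% (SD, n = 2).

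The groups lay in introns of different length. Introns that held a peak at a small RNA gene had a median length of 342 bp (range 115 to 1718), and none of the 55 lay in an intron of 2000 bp or longer. At shorter transcripts' starts the median intron was 1393 bp, and 35 of 68 peaks (51.5%) lay in a first intron. For the remaining peaks the median was 4213 bp, 92 of 123 (74.8%) lay in introns of at least 2000 bp, and the summit was a median of 1126 bp from the nearer end of the intron. Median signals were 65.4, 63.0 and 61.7 in the same order of groups. Places among the highest entries of both replicates were held by 40 of 55 (72.7%), 50 of 68 (73.5%) and 76 of 123 peaks (61.8%). Over all autosomal IDR peaks the share was 67.8%.

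Small RNA genes were far more frequent at intronic peaks than over intron sequence at large. The 22.4% of intronic peaks within 200 bp of one compares with 0.512% of eligible intron bases, 2.03% (1.65 to 2.47%) of the 4728 pooled intronic entries that were not retained, 4.78% (3.52 to 6.33%) of promoter peaks and 10.6% (7.36 to 14.6%) of intergenic peaks. Read the other way, 151 pooled intronic entries lay at such a gene and 55 of them (36.4%, 28.8 to 44.6%) were retained, against 123 of 3934 entries (3.13%, 2.61 to 3.72%) with neither a small RNA gene nor a shorter transcript's start. Entries at shorter transcripts' starts were retained in 68 of 889 cases (7.65%, 5.99 to 9.60%). How reads from near-identical copies of tRNA, snoRNA and snRNA genes were placed is not given in the sources used here, so the values at single copies are uncertain.

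Transfer RNA genes accounted for 24 of these peaks. Of 174 tRNA genes in eligible intron, 25 (14.4%, 9.52 to 20.5%) had an intronic peak within 200 bp, and 85 (48.9%) had any entry of the pooled list. The summit lay a median of 24 bp upstream of the 5′ end of the tRNA (from 98 bp upstream to 65 bp downstream), and was upstream in 15 of 24. The tRNAs covered 14 kinds: arginine, isoleucine and lysine tRNAs had 3 peaks each, alanine, leucine, proline and valine tRNAs 2 each, and 7 others 1 each. Among these 7 was the selenocysteine tRNA in K11H12.8, with signal 80.0 and ranks 1105 and 317 in replicates 1 and 2. The strongest, at a glutamine tRNA in intron 4 of Y4C6B.3 (IV:5334488-5334827), had signals of 100.6 pooled, 61.2 in replicate 1 and 42.3 in replicate 2. Signals at tRNA genes ran from 46.3 to 100.6, below those of the leading 15.

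Of 134 snoRNA genes in eligible intron, 27 (20.1%, 13.7 to 28.0%) had an intronic peak within 200 bp, and 26 peaks lay at them. The summit was a median of 22.5 bp upstream of the snoRNA's 5′ end and upstream in 18 of 26. At 18 of these peaks the snoRNA gene lay on the strand of the host gene and at 8 on the other strand, and at tRNA genes the counts were 17 and 7. The strongest was in intron 17 of pxn-1, which encodes a peroxidasin of the extracellular matrix (V:8500469-8500590), with signals of 132 pooled, 82.2 in replicate 1 and 49.0 in replicate 2. Others lay in the FERM-domain gene frm-7 (78.2) and in the spectrin gene unc-70 (63.3).

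The snRNA genes were few and gave the strongest small RNA peaks. Of 52 snRNA genes in eligible intron, 4 (7.69%, 2.14 to 18.5%) had an intronic peak, with 5 peaks in all. The peak in intron 31 of the dynein heavy chain gene dhc-4 (III:10989465-10989804) lay 44 bp upstream of the snRNA gene W05B2.8. Its signal was 153 pooled, 112.6 in replicate 1 and 41.8 in replicate 2. The pair of overlapping peaks in F58G1.7 lay at the snRNA gene sup-6 and had pooled signals of 149.9 and 100.8, both matched to the entry of signal 90.8 in replicate 1 and 60.4 in replicate 2. The other peaks were at F32B5.9 in cpz-1 (70.5) and R07E5.16 in mpc-1 (45.7).

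Non-coding genes of any kind lay within 200 bp of 92 intronic peaks (37.4%, 31.3 to 43.8%), against 7.23% of eligible intron bases, 11.0% of the pooled intronic entries not retained, 16.1% of promoter peaks and 26.2% of intergenic peaks. The share was 14.6% when the summit had to lie inside the non-coding gene. Genes annotated as ncRNA were near 63 peaks (25.6%) and covered 3.05% of eligible bases with the same margin. MicroRNA genes were near 2 peaks (0.813%, 0.0986 to 2.91%), against 0.0968% of eligible bases and 0.148% of the pooled intronic entries not retained. Genes of piRNAs, the small RNAs of the germline, were also near 2 peaks, below their 3.68% of eligible bases.

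Starts of shorter transcripts were at 73 intronic peaks (29.7%, 24.0 to 35.8%) when the 5 that also lay at small RNA genes were included. Of the pooled intronic entries not retained, 17.7% (16.6 to 18.8%) were at such a start, and so were 11.1% of eligible bases. The leading peak of this kind was that of rme-1, at which the windows of 4 annotated starts overlapped, and those of zfp-1 (189), unc-108 and scc-2 came next. lgg-2, one of the worm's LC3-like autophagy genes, had a peak of signal 92.1 in its first intron (IV:10935357-10935696), 376 bp from the gene's 5′ end, with ranks 525 and 395 in replicates 1 and 2. hlh-30, the worm's TFEB gene, had one of 67.8 in a 7833 bp intron, 14908 bp from the gene's 5′ end, with ranks 808 and 899.

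Outside small RNA genes, the density of peaks was higher in longer introns. Introns under 500 bp held 18 such peaks, 2.57 per Mb of eligible sequence, and those from 500 bp to under 1000 bp held 22, at 3.64 per Mb. From 1000 bp to under 2000 bp the density was 5.62 per Mb, from 2000 bp to under 5000 bp 13.3 (10.1 to 17.2) and from 5000 bp to under 10000 bp 23.2 (17.0 to 31.0). At 10000 bp or more it was 24.9 (14.7 to 39.3), with 18 peaks. With peaks at small RNA genes included, introns under 500 bp reached 7.71 per Mb, with 54 peaks. The 3 longest classes held 23.2%, 18.7% and 7.32% of the intronic peaks, against 22.0%, 12.6% and 5.12% of the pooled intronic entries not retained and 16.9%, 7.79% and 2.85% of eligible sequence.

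**Figure D3:**
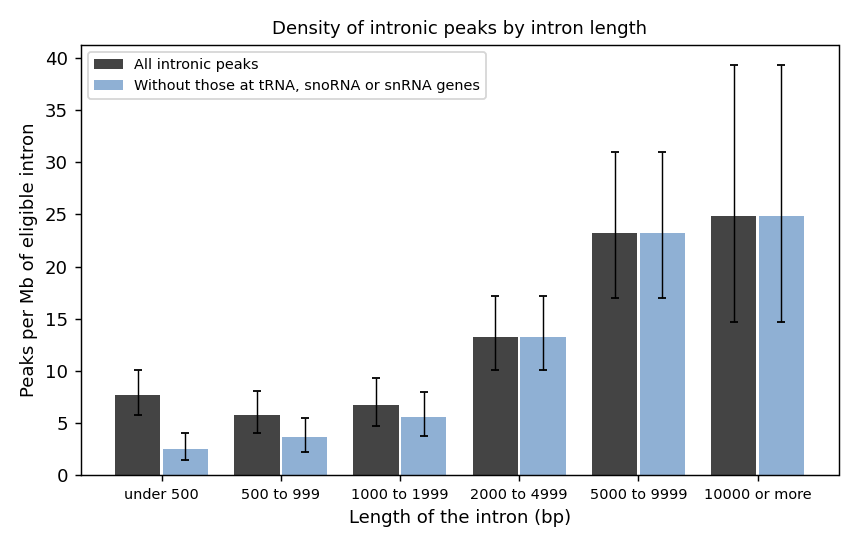
Intronic peaks per Mb of eligible intron sequence (y axis) by length of the intron (x axis, bp), for all intronic peaks and without those at tRNA, snoRNA or snRNA genes; error bars are exact 95% Poisson intervals. From 2000 bp upward the bars of each pair are equal, because no peak at a small RNA gene lay in such an intron; below 500 bp they stand at 7.71 and 2.57 per Mb.

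The intron's place in the gene also went with the density. First introns held 78 intronic peaks at 14.8 per Mb (11.7 to 18.5), and later introns held 168 at 8.35 per Mb (7.14 to 9.72). Among introns under 2000 bp the densities were 10.4 per Mb (7.14 to 14.8) for first and 6.07 (4.90 to 7.44) for later introns. At 2000 bp or longer they were 20.9 (15.3 to 27.9) and 15.7 (12.3 to 19.6). The intervals overlapped in both length classes, which include the peaks at small RNA genes. Without those peaks, over all lengths, the densities were 13.9 per Mb (10.9 to 17.4) for first introns. For later introns they were 5.87 per Mb (4.86 to 7.03), and these intervals did not overlap. First and later introns of like length were not compared without the peaks at small RNA genes. The summits lay a median of 3370 bp from the 5′ end of the host gene and a median of 2090 bp outside the nearest promoter window. Of them, 10 were within 100 bp of such a window and 48 (19.5%) within 500 bp. The longest intron with a peak, of 19925 bp in Y48C3A.5 (II:13292994-13293333), held one of signal 42.8, with ranks 2478 and 1392 in replicates 1 and 2. Intronic peaks had nearer neighbours than other peaks: the next IDR summit was a median of 7451 bp away, against 14376 bp for promoter and 11565 bp for intergenic peaks.

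Motifs were sought on both strands in the 101 bases centred on each summit. The AP-1 site TGASTCA was present at 16 intronic peaks (6.50%, 3.76 to 10.3%). It was present in 0.813% (0.222 to 2.07%) of windows 400 bp to either side of the same summits and in 0.721% of 215288 windows of that length tiled over eligible intron. That last share is uncertain, for a reason given with the other motifs below. The share was 3.12% (2.11 to 4.42%) at promoter peaks, 4.30% (2.31 to 7.25%) at intergenic peaks and 1.5% (1.18 to 1.89%) at pooled intronic entries that were not retained. The intervals of intronic, promoter and intergenic peaks overlapped. Among the highest intronic entries of each replicate alone the share was 4.78% in replicate 1 and 5.0% in replicate 2 (mean 4.89 ± 0.155, SD, n = 2). Most intronic peaks, 230 of 246, had no AP-1 site in this window.

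The GA repeat was more frequent than any other sequence searched. GAGAGAG or its complement was present at 61 intronic peaks (24.8%, 19.5 to 30.7%), against 0.610% (0.126 to 1.77%) of flanking windows and 1.32% of intron windows. Promoter peaks had it in 11.2% (9.30 to 13.4%) and intergenic peaks in 31.1% (26.0 to 36.7%), and the pooled intronic entries not retained in 4.08%. In each replicate alone the share was 18.7% and 17.1% (mean 17.9 ± 1.12, SD, n = 2), below the 24.8% of the IDR peaks. By group it was at 6 of 55 peaks at small RNA genes (10.9%), 24 of 68 at shorter transcripts' starts (35.3%) and 31 of 123 elsewhere (25.2%). Of the 254 pooled intronic entries with the repeat, 61 (24.0%, 18.9 to 29.8%) were retained, and of the 87 with an AP-1 site, 16 (18.4%, 10.9 to 28.1%). Both motifs were present together at 6 intronic peaks. Among these retained peaks, all above the common floor of signal, medians were close. They were 65.8 with the repeat and 62.6 without it, and 65.9 with an AP-1 site and 63.2 without it.

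The other motifs were present at fewer intronic peaks than the GA repeat. The E-box CACGTG was at 13 intronic peaks (5.28%, 2.84 to 8.87%) and in 1.22% (0.449 to 2.63%) of flanking windows and 1.38% of intron windows. The GC-box GGGCGG was at 15 (6.10%, 3.45 to 9.86%), against 2.03% of flanks and 1.89% of intron windows. The GATA site TGATAA was at 17 (6.91%), exactly its share in flanking windows (6.91%), and in 8.30% of intron windows. The forkhead site TGTTTAC was at 2 peaks (0.813%), in 0.813% of flanking windows and in 0.959% of intron windows. The cAMP-response site TGACGTCA was at 3 (1.22%, 0.252 to 3.52%), in eat-16, ida-1 and dlk-1, against 0.203% of flanks. Its count of intron windows came out identical to that of the AP-1 site (1552 of 215288), so no intron background is given for it. Which site the count belongs to was not resolved, so the intron-window share of the AP-1 site is uncertain too. GGTTCGA, a sequence of the internal promoter of tRNA genes that was added after the data were seen, was at 13 peaks (5.28%, 2.84 to 8.87%), against 1.02% (0.331 to 2.36%) of flanks and 0.690% of intron windows. Of the 13, 10 were at small RNA genes: 6 at tRNA genes and 4 at snoRNA genes. For CACGTG and GGTTCGA the intervals at summits and in flanks did not overlap, as for the AP-1 site and the GA repeat. Base composition differed along with these shares: the median GC content of the windows was 48.0% for intronic peaks, 45.5% for promoter peaks, 45.5% for intergenic peaks and 31.7% for intron windows. The part of base composition in the motif shares was not tested.

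**Figure D4:**
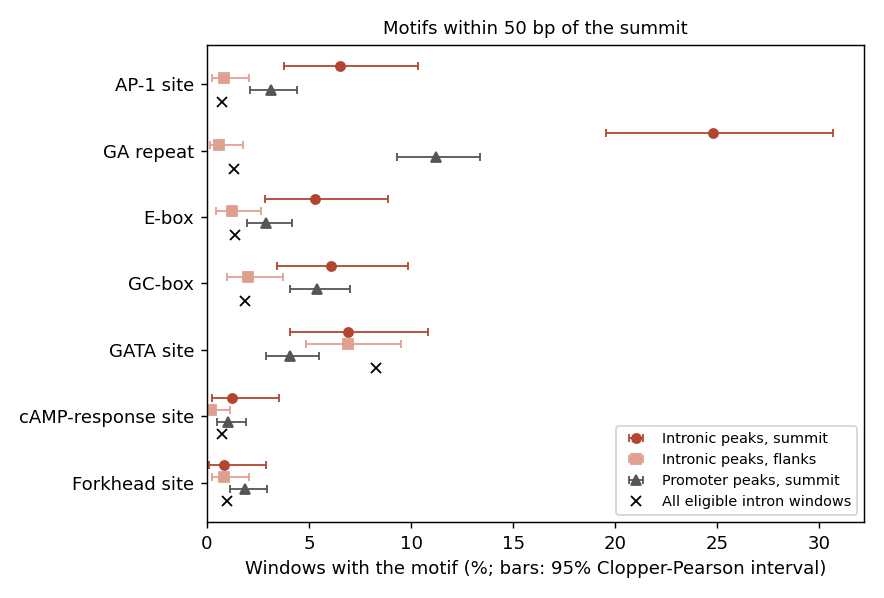
Share of windows with each motif (x axis, percent) at the summits of intronic peaks, in windows 400 bp to either side, at promoter peak summits and in all eligible intron windows; bars are 95% Clopper-Pearson intervals. The intron-window mark of the cAMP-response site repeats the count of the AP-1 site and should not be read. Which site the count belongs to was not resolved, so the mark of the AP-1 site is uncertain too. The intervals of the AP-1 site (6.50% at summits, 0.813% in flanks), the GA repeat (24.8% and 0.610%) and the E-box (5.28% and 1.22%) do not overlap those of their flanks, and that of the GATA site (6.91% and 6.91%) does.

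The 16 peaks with an AP-1 site lay in 14 genes, 3 of them in vhp-1. After vhp-1 and rme-1 came nova-1, the worm homologue of the Nova RNA-binding proteins, with signals of 102.9 pooled, 59.0 in replicate 1 and 46.0 in replicate 2, and the tRNA-Gln peak of Y4C6B.3. F53H2.3 had 83.3, with ranks 371 and 1784 in replicates 1 and 2. The polarity kinase gene par-1 had a peak of 70.9, with 49.1 in replicate 1 and 24.1 in replicate 2. soc-2, a scaffold of Ras signalling, had 69.8, with ranks 373 and 3855, so that its place rested on replicate 1. The autophagy gene epg-6 had 62.3, the tyrosine phosphatase gene ptpn-22 had 58.0, the axon regeneration kinase gene dlk-1 had 53.2 and the kinesin gene klp-6 had 49.1. Near the foot of the list were C08G5.7 (45.9), the nuclear receptor gene nhr-36 (43.2) and C17H12.11 (43.1). The site lay from 8 to 46 bp from the summit. The peak in dlk-1 also held a TGACGTCA sequence.

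The 246 peaks lay in 204 host genes, of which 179 had 1, 17 had 2 and 8 had 3 or more; those 8 genes held 33 peaks (13.4%). Host genes had an IDR summit in their own promoter window in 35 of 204 cases (17.2%, 12.3 to 23.0%), against 7.14% (6.73 to 7.56%) of the 15059 autosomal genes with eligible intron. For hosts of peaks at small RNA genes it was 3 of 54 and for hosts of the other peaks 32 of 150. Where the gene had at least 2000 bp of eligible intron the shares were 13.6% (8.51 to 20.2%) of 147 hosts and 9.09% (8.14 to 10.1%) of 3322 genes, with overlapping intervals.

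zfp-1 had the most, with 6 intronic peaks in 2 introns, at pooled signals of 189, 155.7, 151, 122, 55.8 and 50.7. In replicate 1 the first 4 had 124.8, 95.8, 86.0 and 89.5, and in replicate 2 68.2, 61.3, 60.1 and 37.4. The 2 at 155.7 and 50.7 overlapped, with summits 202 bp apart. vhp-1 had 5 in 4 introns: 342, 108, 103, 69.6 and 43.1 in the pooled list. The last of these ranked 1870 in replicate 1 and 2722 in replicate 2. pqn-41, which is known for a part in the death of the male linker cell, had 5 along 5153 bp of 1 intron of 7770 bp. Their pooled signals were 151.8, 146, 118, 100 and 70.5, and they ranked between 155 and 650 in replicate 1 and between 143 and 964 in replicate 2. In none of the 3 genes did the gene's own promoter window hold an IDR summit.

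**Figure D5:**
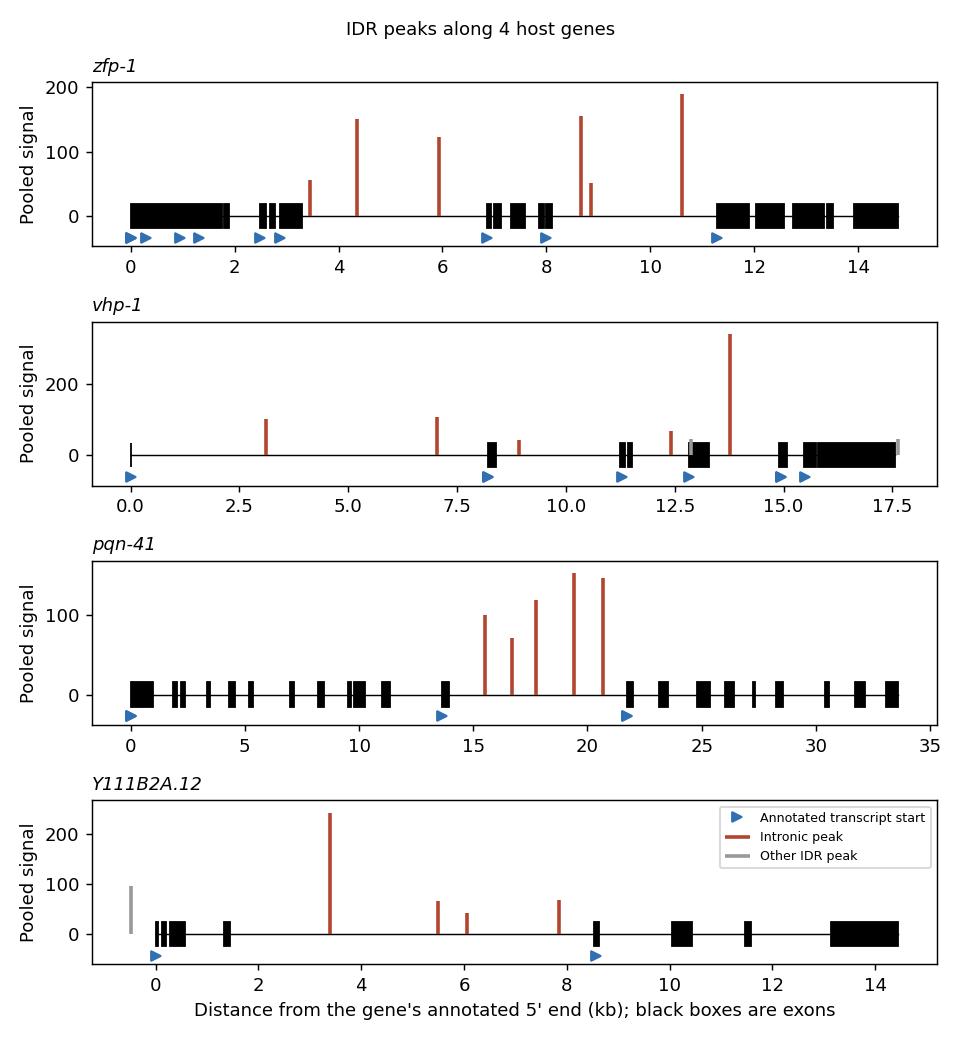
IDR peaks along zfp-1, vhp-1, pqn-41 and Y111B2A.12: distance from the annotated 5′ end (x axis, kb) and pooled signal (y axis, authors' scale), with intronic peaks in red, other IDR peaks in grey, exons as black boxes and annotated transcript starts as arrowheads. The 5 peaks of pqn-41 sit in a single intron, and Y111B2A.12 has a further IDR peak, of signal 95.9, in its promoter window.

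Y111B2A.12 had 4 intronic peaks in 1 intron of 7076 bp, at 244, 69.2, 66.8 and 42.6, and a promoter peak of 95.9. aakg-1, which encodes a gamma subunit of AMP-activated kinase, had 4, at 80.3, 62.6, 50.9 and 42.9. par-1 had 3 in 1 intron of 7794 bp, at 100.4, 70.9 and 42.9. let-526, a component of SWI/SNF chromatin remodelling complexes, had 3, at 70.5, 67.2 and 61.7, and kin-1, the catalytic subunit of protein kinase A, had 3, at 60.2, 52.2 and 43.3. kin-1 spans 38461 bp and aakg-1 36738 bp. Ranks in the replicates reached 2403 in aakg-1 and 2590 in kin-1.

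Hand-written lists of genes gave the share of hosts among genes with eligible intron, beside 1.35% of all 15059 such genes and 4.43% of those with at least 2000 bp of it. The lists are not complete. Hosts outside them, such as nhr-19 (155.4), unc-108 (179) and let-607 (114.8 and 44.2), entered no list's share. Of the 23 bZIP factor genes listed, 6 were hosts (26.1%, 10.2 to 48.4%). They were zip-2 (115.6), which acts in defence against bacteria, zip-4 (90.4), zip-1 (63.9), skn-1 (62.3), the oxidative stress factor of the Nrf family, crh-2 (59.0) and jun-1 (45.6). The peak in zip-2 ranked 256 and 397 in replicates 1 and 2, and that in zip-4 ranked 528 and 562. Among the listed bZIP genes with at least 2000 bp of eligible intron 4 of 12 were hosts (33.3%, 9.92 to 65.1%).

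jun-1 encodes the Jun partner of FOS-1. Its single peak, in intron 10 of 12 (II:9130434-9130773), lay at a shorter transcript's start, 17447 bp from the gene's 5′ end. The signals were 45.6 pooled, 33.3 in replicate 1 and 14.0 in replicate 2, with ranks 1695, 1350 and 2792, so it was among the weaker intronic peaks. The promoter window of jun-1 also held an IDR peak, of signal 378, above every intronic peak. The pooled list held 16 intronic entries in jun-1, replicate 1 held 20 and replicate 2 held 14. In fos-1 itself no list held an intronic entry (0 in all 3), and in unc-119 there were 4 in each list and no IDR peak. Nothing can be read from the 0 entries about binding at fos-1, since the read depth there is unknown and whether the region was masked is not given in the sources used here.

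Of the 100 genes of kinase and GTPase signalling listed, 11 were hosts (11.0%, 5.62 to 18.8%), led by vhp-1. The Rab2 GTPase gene unc-108 (179) was not in this list. mpk-1, the worm ERK kinase, had a peak of signal 118.6 in its first intron of 8247 bp (III:4223649-4223988), with 83.3 in replicate 1 and 35.9 in replicate 2. eat-16, a regulator of G protein signalling, had one of 104.5, with 71.1 in replicate 1 and 36.7 in replicate 2; its summit also lay in an intron of ocrl-1, so the host is uncertain. Among genes of the list with at least 2000 bp of eligible intron, 10 of 68 were hosts (14.7%, 7.28 to 25.4%). Of the 108 transcription factor genes listed, 8 were hosts (7.41%, 3.25 to 14.1%). The nuclear receptor gene nhr-19 (155.4) was not in this list. Highest among the listed hosts were mef-2 (153.5), the FOXO gene daf-16 (84.3 and 44.0) and the Smad gene daf-14 (70.4). The weaker daf-16 peak ranked 1396 in replicate 1 and 11453 in replicate 2. With at least 2000 bp of eligible intron the count was 8 of 64 (12.5%, 5.55 to 23.2%).

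The other lists had fewer hosts. Of 74 genes of cell adhesion and cytoskeleton 4 were hosts (5.41%, 1.49 to 13.3%), and 3 of these, frm-7, unc-70 and unc-33, through a small RNA gene; the cadherin gene hmr-1 had a peak of 47.2. Of 31 basement membrane and matrix genes 2 were hosts (6.45%, 0.791 to 21.4%), pxn-1 at an snoRNA gene and ost-1 (45.9), the worm SPARC. Of 94 synapse, channel and neuronal genes 3 were hosts (3.19%, 0.663 to 9.05%): rab-3 (74.9), unc-43 (74.0 and 57.4) and, at a tRNA gene, osm-9 (64.3). Of 50 genes of proteostasis, translation and stress 3 were hosts (6.0%, 1.26 to 16.6%): lgg-2, hlh-30 and the polyubiquitin gene ubq-1 (48.0). Of 12 genes linked to FOS-1 the host was jun-1. None of 41 muscle and sarcomere genes was a host (0.00%, upper bound 8.60%). With at least 2000 bp of eligible intron it was none of 28 (upper bound 12.3%), where the background of 4.43% lies inside the interval.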

How the data were processed

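ChIP-seq of eGFP-tagged FOS-1 in whole L1 larvae gave 1 library for each of 2 biological replicates. The authors deposited narrowPeak lists whose signal values are unlogged and of unstated scaling. Per the deposited text files, a control file and the aligned reads of 1 replicate gave its list, the aligned reads of both with that control gave the pooled list, and the IDR list came from these 3 lists. How reads were aligned, how peaks were called and at which IDR threshold, and how reads with several matches were treated is not stated in what was used here. The ce11 lists were used and those of ce10 were not.

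Summits were placed on Ensembl release 115 gene models of WBcel235 (19985 protein-coding genes), and names of tRNA, snoRNA and snRNA genes came from RefSeq. Where summits lay in introns of 2 genes (2 peaks), 1 host was kept. A replicate value was that of the overlapping entry (at least 1 bp) of highest signal. Eligible intron met the same rule base by base. Classification and motif search were tested on simulated data, but the identical intron-window counts of the AP-1 and cAMP-response sites were not resolved. Scripts ran under Python 3.11.15 with scipy 1.17.1 for intervals, pandas 2.3.3 and numpy 2.4.6 for tables, and matplotlib 3.10.9 for figures. Read depth was unknown, so no precision from depth could be given.

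The intronic set, the gene lists and the motifs were chosen with earlier results of these data known. Genes were named by a rule: hosts of the 15 peaks of highest signal, of all peaks with an AP-1 site and of 3 or more peaks; up to 3 hosts per gene list; the weakest peak, the longest intron, and jun-1, fos-1 and unc-119. Genes outside it (K11H12.8, C18H7.1, W06H8.6, cpz-1, mpc-1, ida-1, let-607, the remaining listed hosts) were named after their values were seen.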

Additional observations from a re-analysis of the deposited data

How the results depend on the processing

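Of 93 recomputed values, 76 stayed within the interval of the value reported, or within 1.5 times for counts, and 17 did not. This tally is not a measure of robustness, because some outcomes were fixed by the setting. Taking the interval midpoint in place of the summit left the count at 246 and most other values unchanged. Keeping only the upper part of the list by signal lowers counts and density by construction. Counting exons of genes of any kind as exon gave 4.35% of pooled intronic entries retained, 26.3% of peaks near a non-coding gene and 8.39 peaks per Mb. The 947 IDR peaks of highest signal held 122 intronic peaks in 103 host genes, 4.81 per Mb, with 97.5% among the highest entries of both replicates. With the highest entries of 1 replicate in place of the IDR list, the GA repeat was at 17.1 to 18.7% of intronic peaks, the median rank was 760 to 875.5 and the density 9.89 to 11.0 per Mb. Within 25 bp of the summit the AP-1 site was at 3.25%, the GA repeat at 13.0% and TGATAA at 2.85% of intronic peaks. Within 100 bp the GA repeat was at 36.2%. A narrower window can only lower such a share and a wider one only raise it. Whether the sites gather at the summit itself was not tested. Transcript start windows of 500 bp upstream to 100 bp downstream held 21.5% of intronic peaks, and 14.6% of summits lay inside a non-coding gene. No paired analysis was possible because there was 1 group. Unknown read depth and 2 replicates limit every value: an entry outside a list is not absence of binding, and neighbouring peaks are not independent.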
